A study of Mus musculus with 12 samples.

Results

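The *nm1054* deletion was compared with wild type on the B6 background, in whole brains taken at postnatal day 1. The comparison takes 6 of the 12 arrays of the series, 3 titled nm1054 C57BL6/J and 3 titled WT C57BL6/J, over all 45281 probes of the Illumina MouseWG-6 array. WT B6 mice are wild type C57BL6/J, and *nm1054* B6 mice are homozygous for *nm1054*, the loss of a stretch of chromosome 1 that arose without mutagenesis and holds 6 genes. The other 6 arrays, 3 of WT and 3 of *nm1054* mice on the 129S6/SvEvTac background (129), entered the same fit. No group received a treatment. By the methods every group of 3 mixed males and females, and whether each array holds 1 brain is not settled by the sources used here. The *nm1054* B6 mice alone also carry a bacterial artificial chromosome transgene with *Steap3*, because loss of *Steap3* causes a lethal anemia on B6, so the deletion and the transgene cannot be told apart within the B6 arrays. The 129 mutants carry the deletion without the transgene. Gross hydrocephalus was not seen at this age, so the arrays describe brains before that damage.

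Motile cilia are the beating organelles of ependymal cells, which line the ventricles and move cerebrospinal fluid. *Cfap221*, 1 of the deleted genes, encodes a protein of the ciliary axoneme, and mice without it develop hydrocephalus that is known to be more severe on B6 than on 129. The other deleted genes are *Dbi*, which encodes the acyl-CoA binding protein ACBP, *Steap3*, a ferrireductase of iron uptake in red cell precursors, *Sctr*, the secretin receptor, *Tmem37*, which encodes a membrane protein, and *3110009E18Rik*, a gene of unknown function. In the RefSeq annotation of GRCm38.p6 their records run from *Cfap221* (chr1:119923340-120006958) through *Sctr* (chr1:120006879-120063539), *Tmem37* (chr1:120067377-120074069), *Dbi* (chr1:120113280-120121096) and *3110009E18Rik* (chr1:120121082-120188190) to *Steap3* (chr1:120226414-120271081), a span of 347.7 kb.

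Deposited values are log2 intensities, scaled so that every probe has a median of 0 across the 12 arrays. A value therefore compares arrays at 1 probe and does not give the brightness of the probe, so levels of different genes cannot be compared, and the brain label could not be checked against the presence of markers. A difference is the mean of the *nm1054* B6 arrays minus the mean of the WT B6 arrays in log2 units, tested with limma's moderated statistic. A probe was called where the Benjamini-Hochberg adjusted p over all probes was under 0.05 and the fold change over 1.5.

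WT B6 replicate 1 stood apart from the other arrays, and the main counts are therefore given with and without it. Its median absolute gap to the other WT B6 arrays was 0.24 log2 units, against 0.09 to 0.17 for the other 11 arrays and their group mates, and its median over all probes was the lowest at -0.17, where the others ran from -0.10 to 0.11. With each array centred on its median the gap was 0.19, against 0.09 to 0.15. Its median absolute difference was 0.23 and 0.27 from WT B6 replicates 2 and 3, and 0.18 to 0.21 from the *nm1054* B6 arrays, so it lay nearer to the mutants than to its own group. After centring these became 0.19 and 0.21 against 0.17 to 0.20, ranges that overlap. It was also the WT B6 array with high signal of *Xist*, the RNA of the inactive X chromosome. The mean over the *Xist* probes was 1.78 in it and -1.91 and -1.86 in WT B6 replicates 2 and 3, and 2.42, 2.37 and -2.23 in *nm1054* B6 replicates 1 to 3. The Y-linked gene *Eif2s3y* ran opposite at ILMN_1241001, at -2.68, 2.56 and 2.36 in WT B6 and -2.59, -2.40 and 1.98 in *nm1054* B6. Each B6 array thus read as 1 sex. Without replicate 1 both WT B6 arrays are low in *Xist* and read as male. Of the 3 mutant arrays, 2 are high in *Xist* and read as female. The part of this in the results was not tested beyond a fit with *Xist* as a covariate.

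With all arrays, 8 probes were called, 3 higher and 5 lower in *nm1054* B6, which is 0.0177% of the probes tested, with 0.00663% called higher and 0.011% lower. The lower probes were 3 of *Dbi*, the probe of *3110009E18Rik* and a probe without a gene name, and the higher ones were 2 of *Map1b* and 1 of *Spag9*. With each array centred on its median the split was 2 higher and 6 lower. An unadjusted p under 0.05 was found at 2769 probes (6.12%), 1215 higher and 1554 lower. The 6 arrays fell into groups that did not overlap at 4173 probes, or 9.22% of all.

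*Dbi* fell in all 3 mutant arrays. ACBP binds the acyl-CoA esters that feed lipid synthesis and oxidation, and a peptide cut from it binds the benzodiazepine site of GABA receptors. At probe ILMN_3150159 the WT B6 values were 3.78, 3.71 and 3.87 and the *nm1054* B6 values -4.24, -4.16 and -4.15. The difference of -7.97 (SE 0.10) had an adjusted p of 3.1e-20. At ILMN_1215469 the WT B6 values were 3.55, 3.49 and 3.70 and the mutant values -3.35, -3.89 and -3.86, a difference of -7.28 (SE 0.13, adjusted p = 9.4e-18). ILMN_3071356 moved less, from 1.25, 1.09 and 1.07 in WT B6 to -1.40, -1.57 and -1.26 in *nm1054* B6, a difference of -2.55 (SE 0.11, adjusted p = 4.9e-11). The groups did not overlap at any of these probes. Detection calls were not used, so whether the mutant signal of a deleted gene exceeded background is not known, and the sizes of these differences are not compared.

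*3110009E18Rik*, which begins beside *Dbi* on the opposite strand, fell from 1.92, 2.29 and 2.11 in WT B6 to -2.28, -2.43 and -2.15 in *nm1054* B6, a difference of -4.39 (SE 0.13, adjusted p = 4.0e-14). The start sites taken from RefSeq lie head to head with 90 bases between them, although the gene records overlap by 15 bases. The stretch between the starts is shown because the deletion takes both start sites and both transcripts fell. It is chr1:120121097-120121186 of GRCm38.p6, minus strand, as *Dbi* is read. Its letters hold neither the GC box GGGCGG nor the box CCAAT nor the TATA box TATAAA on either strand.
Dbi and 3110009E18Rik: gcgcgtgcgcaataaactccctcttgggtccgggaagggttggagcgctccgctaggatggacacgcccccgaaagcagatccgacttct

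The remaining deleted genes gave small differences that were not called, so on these arrays the loss of a gene from the genome can go without a call. *Cfap221* was 0.03, 0.29 and 0.27 in WT B6 and -0.20, -0.48 and -0.21 in *nm1054* B6. All mutant arrays lay below all WT arrays, and the difference of -0.49 (SE 0.13) had an adjusted p of 0.43, or 0.074 without WT B6 replicate 1. On 129 the difference at this probe was -0.48, of like size. The probes of *Sctr* differed by -0.28 and -0.11 and the probe of *Tmem37* by -0.03, with overlapping groups at the last 2. For *Steap3*, which the transgene restores in the B6 mutants, the probes differed by -0.29 and -0.09. On 129, where the mutants carry no transgene, they differed by 0.06 and -0.01, so these probes did not register the loss of *Steap3* there and say nothing of the level from the transgene.

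ILMN_2647251 has no gene name in the platform table. It read 0.41, 0.70 and 0.72 in WT B6 and -0.63, -0.60 and -0.41 in *nm1054* B6, a difference of -1.16 (SE 0.12, adjusted p = 6.6e-05). Its groups did not overlap on B6, and on 129, where no transgene is present, the difference was -1.22.

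**Figure D1:**
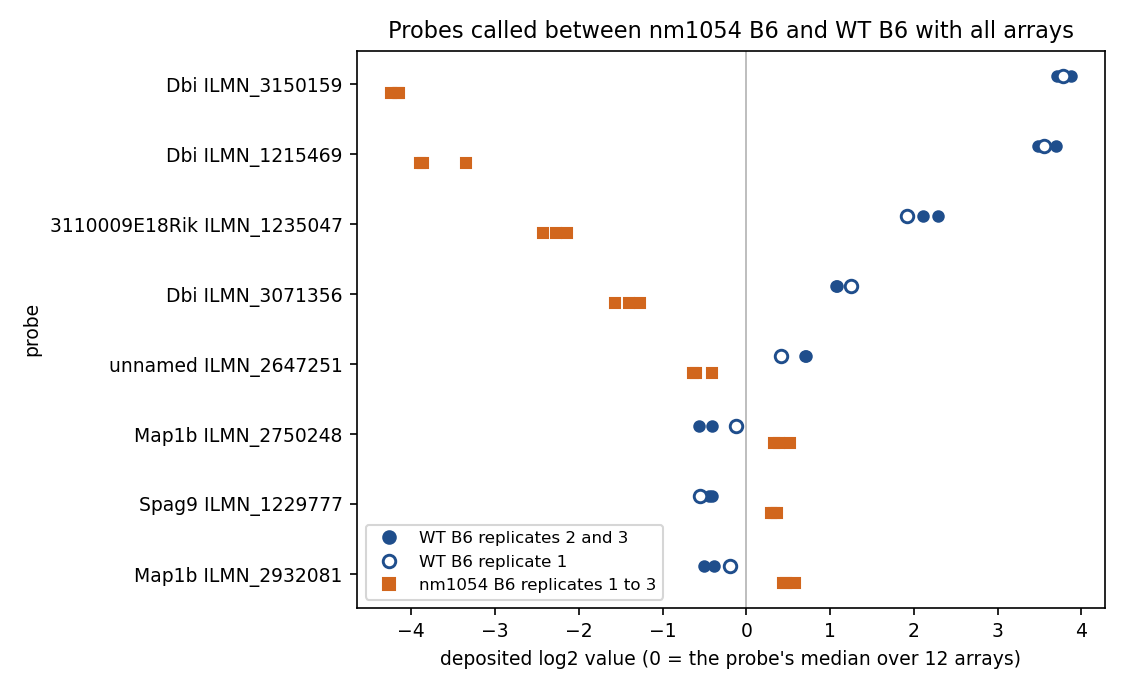
Deposited log2 values (x axis, 0 is the median of the probe over 12 arrays) of the 8 probes called with all arrays (y axis), with 1 point per B6 array. The WT B6 and *nm1054* B6 arrays do not overlap at any of them, and WT B6 replicate 1 (open circle) is the WT array nearest to the mutants at both probes of *Map1b* but not at *Spag9*.

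*Spag9* and *Map1b* were the genes called higher in *nm1054* B6 with all arrays. *Spag9* encodes JIP4, a scaffold of JNK signaling that also links cargo to microtubule motors, and *Map1b* a microtubule-associated protein of growing axons. Whole brain was measured, so more cells of a type and more RNA per cell cannot be told apart, here or below. *Spag9* probe ILMN_1229777 was -0.56, -0.45 and -0.41 in WT B6 and 0.36, 0.33 and 0.29 in *nm1054* B6, which gives 0.80 (SE 0.10, 1.74-fold, adjusted p = 0.0026). WT B6 replicate 1 was the lowest of the WT arrays there, and without it the difference was 0.76 (adjusted p = 0.0036). The other 4 *Spag9* probes differed by 0.04 to 0.14 and were not called. *Map1b* probe ILMN_2932081 was -0.19, -0.38 and -0.50 in WT B6 and 0.58, 0.48 and 0.44 in *nm1054* B6, a difference of 0.86 (SE 0.12, 1.81-fold, adjusted p = 0.0033). At ILMN_2750248 the WT B6 arrays read -0.12, -0.41 and -0.57 and the mutants 0.33, 0.52 and 0.39, a difference of 0.78 with an adjusted p of 0.034. That call was lost in 16 of 21 other settings, most of them with 1 array left out, while ILMN_2932081 lost its call in 3 and *Spag9* in 2. The *Map1b* probes ILMN_2932078 and ILMN_2737867 differed by 0.43 and 0.10 and were not called. As the mean of its 4 probes *Map1b* differed by 0.54 (SE 0.09), with no overlap between the groups.

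The stretches of 250 bases before the RefSeq start sites of *Map1b* and *Spag9* are shown because these are the genes called higher with all arrays and so can be read beside the sequence between *Dbi* and *3110009E18Rik*. They are chr13:99516603-99516852 (minus strand) and chr11:93995841-93996090 (plus strand) of GRCm38.p6. Capitals mark the same 3 motifs on either strand, so that the GC box may also read CCGCCC. *Map1b* holds 1 TATAAA and 1 GGGCGG and *Spag9* 4 GGGCGG.
Map1b: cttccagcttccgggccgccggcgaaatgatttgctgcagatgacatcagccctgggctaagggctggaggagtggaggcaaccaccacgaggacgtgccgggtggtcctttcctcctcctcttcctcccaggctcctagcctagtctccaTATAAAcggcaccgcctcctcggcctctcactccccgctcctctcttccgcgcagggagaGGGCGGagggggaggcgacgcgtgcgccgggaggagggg
Spag9: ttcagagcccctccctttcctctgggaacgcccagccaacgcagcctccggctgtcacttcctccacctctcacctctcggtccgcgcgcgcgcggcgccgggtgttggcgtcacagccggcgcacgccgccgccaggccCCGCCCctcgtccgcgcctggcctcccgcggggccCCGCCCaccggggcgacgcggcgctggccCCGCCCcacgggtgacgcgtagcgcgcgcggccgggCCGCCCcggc

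With WT B6 replicate 1 left out, 93 probes were called (0.205% of those tested), 75 higher (0.166%) and 18 lower (0.0398%) in *nm1054* B6. All 8 probes called with every array were among them. An unadjusted p under 0.05 was found at 5990 probes (13.2%), 1689 higher and 4301 lower, with a median difference of -0.08 over all probes, against -0.02 with all arrays. The called probes thus leaned higher while the table as a whole leaned lower. With each array centred on its median the split was 197 higher and 15 lower, and after quantile normalization 82 and 8. Apart from the deleted genes and ILMN_2647251 the changes were modest, up to 2.64-fold for higher and 1.95-fold for lower probes.

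WT B6 replicate 1 took no part in choosing these 93 probes and mostly did not side with the other WT B6 arrays. It lay nearer to the *nm1054* B6 mean than to the mean of WT B6 replicates 2 and 3 at 71 of the 93 (76.3%), against 65.7% of all probes, and within or past the range of the mutant arrays at 50. The level of the 75 higher probes shows the same. Their median was -0.62 and -0.58 in WT B6 replicates 2 and 3, 0.06 in replicate 1, and 0.21, 0.18 and 0.10 in the *nm1054* B6 arrays. On the 129 arrays, which entered the choice only through the estimate of the spread, it ran from -0.07 to 0.22. Only WT B6 replicates 2 and 3 of the 12 arrays were low at these probes. Their gap to the mutant arrays was fixed by the choice of the probes, and the scaling sets the middle of the 12 arrays at 0.

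**Figure D2:**
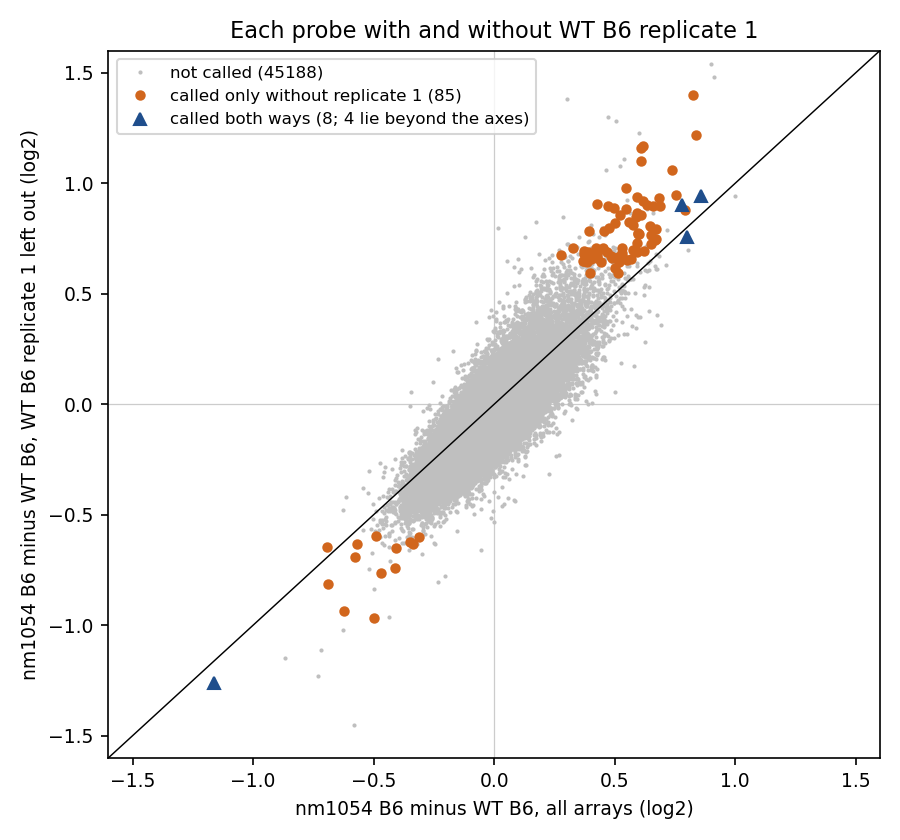
Difference between *nm1054* B6 and WT B6 at each probe with all arrays (x axis, log2) and with WT B6 replicate 1 left out (y axis, log2), with the line of equality. Most of the 85 probes called only without that array lie above the line at the upper right, farther from 0 without it, and 11 probes, 4 of them called both ways, lie beyond the axes.

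Genes of the neuronal cytoskeleton and of axonal transport were among the higher probes with replicate 1 left out. *Kif1b*, a kinesin that carries synaptic vesicle precursors and mitochondria along axons, had WT B6 values of -0.20, -0.91 and -0.97 and *nm1054* B6 values of 0.08, -0.11 and 0.00 at ILMN_2587761. The difference was 0.68 with all arrays (adjusted p = 0.34) and 0.93 without replicate 1 (adjusted p = 0.00059). Replicate 1 sat between the groups there. *Map2*, a microtubule-associated protein of dendrites, was called at 3 of its 8 probes, and the others differed by -0.15 to 0.01 without replicate 1. At ILMN_1226082 the WT B6 arrays read 0.99, 0.07 and -0.13 and the mutants 0.89, 0.88 and 0.79, so replicate 1 was above every mutant array. The difference was 0.55 with all arrays (adjusted p = 0.77) and 0.89 without replicate 1 (adjusted p = 0.0034). *Dpysl2* encodes CRMP2, which promotes microtubule assembly in axons. At ILMN_1240571 it read -0.40, -0.60 and -0.73 in WT B6 and 0.15, 0.03 and 0.47 in *nm1054* B6. Its groups did not overlap, and the difference was 0.79 with all arrays (adjusted p = 0.079) and 0.88 without replicate 1 (adjusted p = 0.0089). The other *Dpysl2* probes differed by -0.19 to 0.42 without replicate 1 and were not called. *Gpm6a*, a membrane glycoprotein of neurites, read 0.44, -0.83 and -0.85 in WT B6 and 0.06, 0.29 and 0.06 in the mutants, with replicate 1 the highest of the 6 arrays. Its difference was 0.55 with all arrays and 0.98 without replicate 1 (adjusted p = 0.018), and its other probes differed by -0.03 and 0.18 without replicate 1. *Vapb*, a protein of the endoplasmic reticulum that tethers it to other membranes, read 0.25, -0.84 and -0.74 in WT B6 and 0.19, 0.18 and 0.08 in the mutants, again with replicate 1 on the mutant side (0.94 without it, adjusted p = 0.0086). *Sbf2* (0.67) and *Mtmr2* (0.69), members of the myotubularin family, were called without replicate 1 as well, *Mtmr2* being named after its values were seen.

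Several genes called higher without replicate 1 encode transcription or chromatin factors, which were not tested as a list. *Zbtb18*, a repressor needed for cortical neuron differentiation, read 0.21, -0.76 and -1.11 in WT B6 and 0.41, 0.23 and 0.21 in *nm1054* B6 at ILMN_3049032. The difference was 0.84 with all arrays (adjusted p = 0.65) and 1.22 without replicate 1 (adjusted p = 0.0095). *Etv1*, an ETS factor, was called at 2 of its 3 probes. At ILMN_2643915 it read 0.30, -0.76 and -0.43 in WT B6 and 0.30, 0.38 and 0.29 in the mutants. Its difference was 0.62 with all arrays (adjusted p = 0.74) and 0.92 without replicate 1 (adjusted p = 0.012), and replicate 1 lay within the range of the mutants. *Ctnnb1*, the β-catenin of Wnt signaling and cell junctions, read -0.29, -0.67 and -0.34 in WT B6 and 0.30, 0.14 and 0.22 in the mutants at ILMN_1255869, with no overlap. Its difference was 0.65 with all arrays (adjusted p = 0.16) and 0.72 without replicate 1 (adjusted p = 0.017). The other *Ctnnb1* probes differed by -0.13 to 0.06 without replicate 1 and were not called. *Gatad2b*, a subunit of the NuRD chromatin complex, differed by 0.83 without replicate 1, *Foxp1* and *Nfib*, factors of developing neurons and glia, by 0.67 and 0.66, and *Wdr82*, a subunit of histone methyltransferase complexes, by 0.90 and 0.86 at 2 of 3 probes. Both called *Wdr82* probes carry an older clone name that RefSeq lists as a synonym, and the other probe of the gene differed by -0.12. Without replicate 1 the 9 *Nfib* probes differed by -0.32 to 0.68 and the 5 *Zbtb18* probes by -0.23 to 1.22.

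The other named genes higher without replicate 1 have unlike roles. *Cdkn1b*, the cell cycle inhibitor p27, read -0.25, -0.59 and -0.65 in WT B6 and 0.17, 0.14 and 0.21 in *nm1054* B6 at ILMN_2638428. The groups did not overlap, and the difference was 0.67 with all arrays (adjusted p = 0.23) and 0.79 without replicate 1 (adjusted p = 0.012). The other *Cdkn1b* probes differed by -0.10 and 0.16 without replicate 1 and were not called. *F13a1*, a transglutaminase subunit known from platelets and macrophages, read -0.03, -0.58 and -0.19 in WT B6 and 0.31, 0.40 and 0.45 in the mutants, also without overlap, and differed by 0.65 and, without replicate 1, by 0.77 (adjusted p = 0.011). *Ogt*, the enzyme that adds O-GlcNAc to proteins, differed by 0.85 without replicate 1, and *Norad*, a long noncoding RNA that binds Pumilio proteins, by 0.69. *Samd12* (0.71), *Coa7* (0.77), a factor for cytochrome oxidase assembly, and *Metap1d* (0.70), a mitochondrial methionine aminopeptidase, completed the 20 named genes.

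**Figure D3:**
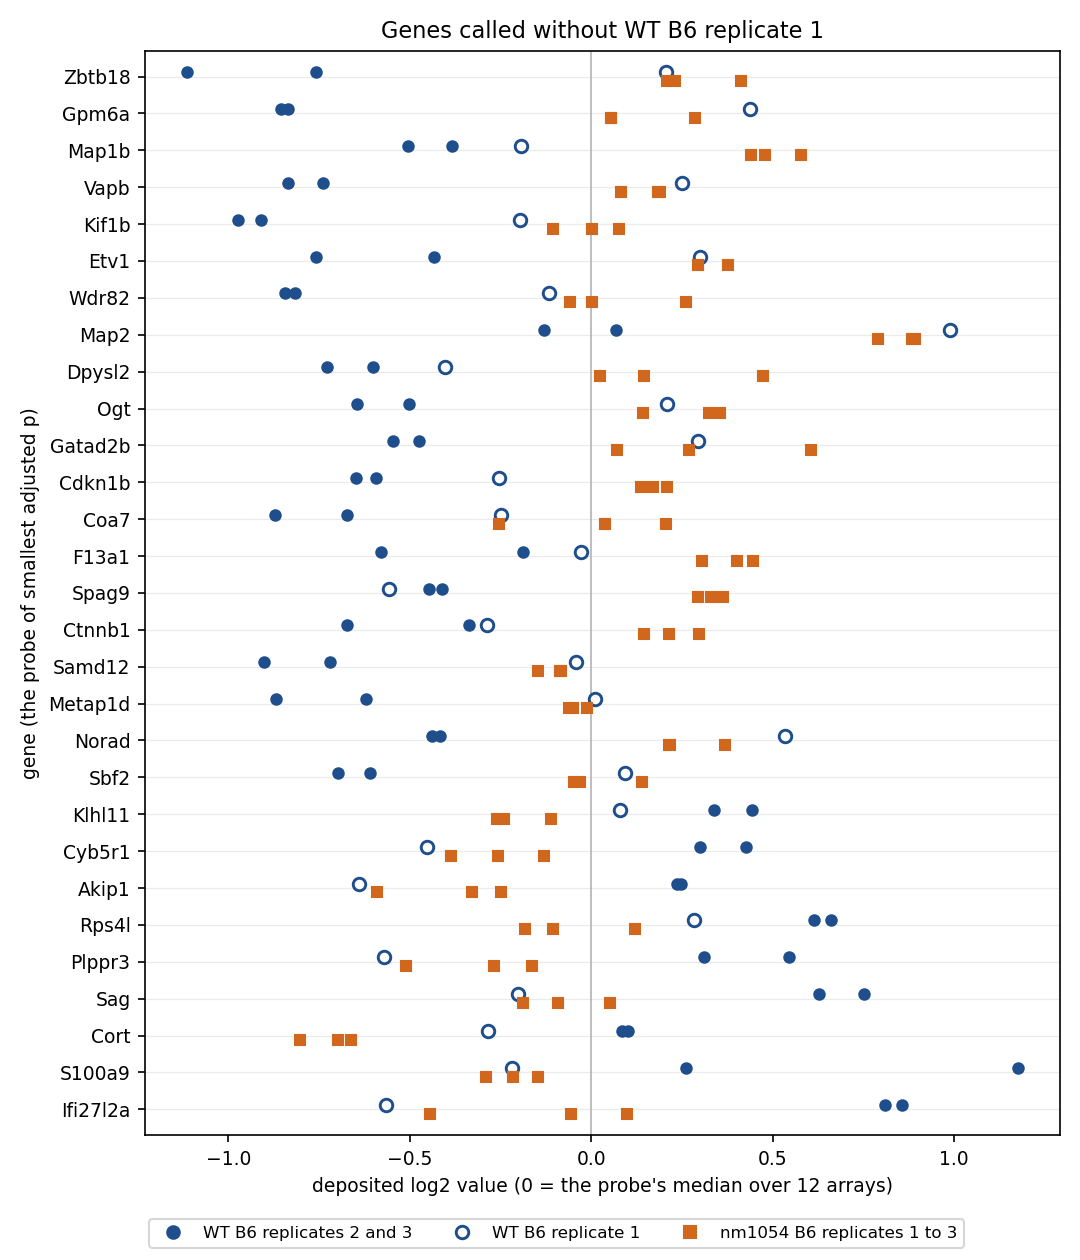
Deposited log2 values (x axis) in each B6 array for the named genes called without WT B6 replicate 1 (y axis), except *Dbi*, each at its probe of smallest adjusted p. WT B6 replicate 1 (open circles) lies among or beside the mutant arrays (squares) for most genes, and nearer to the other WT B6 arrays (filled circles) for *Spag9*, *Ctnnb1*, *Map1b*, *Dpysl2*, *Cdkn1b*, *F13a1* and *Cort*.

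Besides *Dbi*, *3110009E18Rik* and ILMN_2647251, 13 probes were lower without replicate 1, each from a different gene. *Ifi27l2a*, an interferon-induced gene, read -0.57, 0.86 and 0.81 in WT B6 and -0.44, -0.05 and 0.10 in *nm1054* B6, so replicate 1 was the lowest of the 6 arrays. Its difference was -0.50 with all arrays (adjusted p = 0.82) and -0.97 without replicate 1 (adjusted p = 0.0031). *Cort*, the neuropeptide cortistatin of cortical interneurons, read -0.29, 0.10 and 0.09 in WT B6 and -0.66, -0.80 and -0.70 in the mutants. Its groups did not overlap, and the difference was -0.69 with all arrays (adjusted p = 0.16) and -0.81 without replicate 1 (adjusted p = 0.0069). *S100a9*, a calcium-binding protein of neutrophils, read -0.22, 1.18 and 0.26 in WT B6 and -0.15, -0.21 and -0.29 in *nm1054* B6, a difference of -0.94 without replicate 1 (adjusted p = 0.029) that was -0.48 with replicates 1 and 2 both left out. The anion exchanger *Slc4a1* of red cells was highest in the same array, at 1.91, against -0.41 and 0.28 in the other WT B6 arrays and -0.42, 0.11 and -0.11 in the mutants, and the part of blood in the sample was not tested. *Sag*, the arrestin of photoreceptors, differed by -0.77, *Plppr3*, a phospholipid phosphatase-related protein of growing neurons, by -0.74, and *Rps4l*, a ribosomal protein gene, by -0.69. *Klhl11* (-0.59), *Cyb5r1* (-0.62) and *Akip1* (-0.63) were the other named genes. *Aplnr*, the apelin receptor, *Slc38a5*, a glutamine transporter, and the photoreceptor gene *Pde6g* are named outside the rule, after their values were seen. *Aplnr* was 0.24, 0.10 and 0.12 in WT B6 and -0.37, -0.61 and -0.65 in *nm1054* B6, and here replicate 1 was farthest from the mutants. Its difference was -0.69 with all arrays (adjusted p = 0.083) and -0.65 without replicate 1 (adjusted p = 0.041). *Slc38a5* differed by -0.63 and *Pde6g* by -0.65. *Lamb1*, a laminin chain, was the other lower gene, at -0.60.

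Most calls rested on 1 probe of a gene. Of the 93 probes 70 had a symbol, of 63 genes, and 47 of these genes had further probes. *Dbi*, *Map2*, *Wdr82*, *Etv1* and *Map1b* were the genes called at more than 1 probe. Of 107 further probes that were not called, 57 moved in the direction of the called probe, and 6 passed 1.5-fold. Most called probes were higher, and 31.4% of all probes had a positive difference without replicate 1. An unadjusted p under 0.05 without replicate 1 was found at 29 of the 107, against 13.2% of all probes. Some of the 29 ran opposite to the called probe, such as *Nfib* ILMN_1241756 (-0.32) and *Insig1* ILMN_2895388 (-0.33). *Kif1b* shows the spread within a gene, since its 9 probes differed by -0.24 to 0.93 without replicate 1. Probes of a gene can read different transcript ends, which the values do not identify.

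As means over all probes of a gene, 20289 genes were tested. With all arrays 2 were called (0.00986%), *Dbi* at -5.93 and *3110009E18Rik*, and 1298 had an unadjusted p under 0.05 (6.4%), 351 higher and 947 lower. Without replicate 1 there were 10 (0.0493%), and 2860 at an unadjusted p under 0.05 (14.1%), 426 higher and 2434 lower. Beside the deleted genes, *F13a1*, *Gatad2b* and the predicted gene LOC100041516 were higher and *Ifi27l2a*, *Cyb5r1*, *Klhl11*, *Cort* and *Plppr3* lower. *Gatad2b* (0.65) and *Cort* (-0.62) are means of 2 probes, and the other 6 have 1 probe each.

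Promoter windows were matched for 17 of the 20 named higher genes and 8 of the 10 named lower genes, as the 250 bases before the first RefSeq start listed. GGGCGG was found on either strand in 14 of the 17 (82.4%) and 3 of the 8 (37.5%), against 45.7% of 15790 genes named on the array with a window. CCAAT was found in 5 of the 17 (29.4%) and in 0 of the 8, against 35.8%, and TATAAA in 1 of each, against 11.3%. No test was made, since the genes were picked by their values.

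On the 129 background the same deletion, without the transgene, gave 9 called probes (0.0199%), 5 of which were the probes lower on B6. The comparisons share no array but share 1 estimate of the spread. On 129 *Dbi* differed by -7.52, -7.15 and -2.35 at ILMN_3150159, ILMN_1215469 and ILMN_3071356, and *3110009E18Rik* by -4.35. *Spag9* ILMN_1229777 differed by -0.17 on 129 and the *Map1b* probes by -0.06 and -0.01. *Map2* differed there by 0.49, 0.53 and 0.02 at ILMN_2709782, ILMN_1226553 and ILMN_1226082. Of the 75 probes higher on B6 without replicate 1, 51 (68%) were also above 0 on 129, where 34.5% of all probes were. Their median there was 0.07, against -0.05 over all probes, and none of them was called on 129. By array, the median of the 75 was 0.22 in *nm1054* 129 replicate 3 and -0.003 and -0.008 in *nm1054* 129 replicates 1 and 2. In WT 129 replicates 1 to 3 it was 0.04, -0.07 and -0.02, so a single mutant array stood high. Over all probes the differences on the backgrounds had a Pearson correlation of 0.131 and a Spearman correlation of 0.00603, and without *Dbi*, *3110009E18Rik* and ILMN_2647251 the Pearson correlation was -0.00713.

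The difference between the backgrounds was tested as an interaction, the difference on B6 minus that on 129. With all arrays 1 probe passed an adjusted p of 0.05 (0.00221%), and it was not among the B6 calls, while 1851 had an unadjusted p under 0.05 (4.09%). *Spag9* ILMN_1229777 reached 0.97 with an adjusted p of 0.065, and *Map1b* ILMN_2932081 and *Dpysl2* 0.92 and 1.09, each at 0.22. Without WT B6 replicate 1, 7 probes passed, among them these 3 at 0.93, 1.00 and 1.17, each with an adjusted p of 0.031. *Cntn2*, a cell adhesion molecule of axons, also passed at -1.57 (adjusted p = 0.0055), through a difference of 1.44 on 129 and -0.13 on B6, and *Slc4a1* at -2.21, through 0.98 on 129 and -1.23 on B6.

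**Figure D4:**
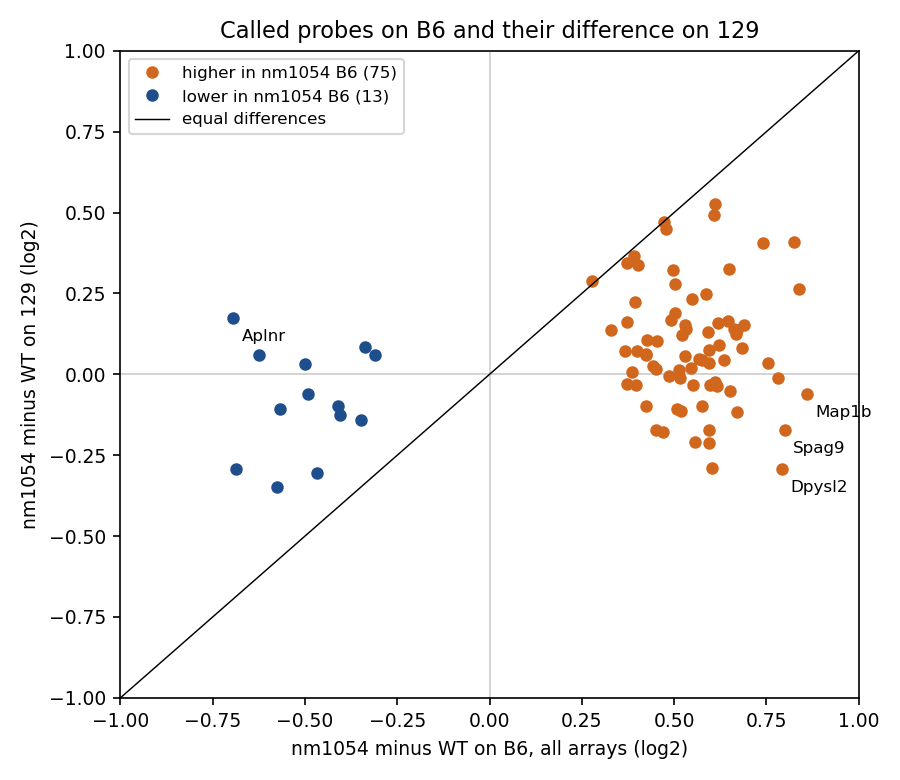
Difference between *nm1054* and WT on B6 with all arrays (x axis, log2) and on 129 (y axis, log2) for 88 probes called without WT B6 replicate 1, leaving out *Dbi*, *3110009E18Rik* and ILMN_2647251. All but 1 of the 75 higher probes, that of *R3hdm1*, lie below the line of equal differences, which choosing probes by their B6 difference makes likely. Of the 75, 51 lie above 0 on 129 (median 0.07), while *Spag9*, *Map1b* and *Dpysl2* lie below 0 there. By array, the median of the 75 was 0.22 in *nm1054* 129 replicate 3 and -0.003 and -0.008 in the other *nm1054* 129 arrays.

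The gene lists below were compared as gene means, and no gene of any list other than *Dbi* and *3110009E18Rik* was called with or without replicate 1. Medians are to be read against -0.03 over all genes with all arrays and -0.09 without replicate 1, and counts at an unadjusted p under 0.05 against the 6.4% and 14.1% above. List genes beyond the 4 of smallest p in a list, and those given without a p under 0.05, were picked after their values were seen. Lists were set with earlier results of these data known, and some hold genes of called probes. Neurite and axon growth holds *Map1b*, *Map2*, *Dpysl2* and *Gpm6a*, and projection neurons *Foxp1*, *Nfib* and *Zbtb18*. The JIP list holds *Spag9* and *Kif1b*. Counts of these lists are therefore not independent of the calls. Of 61 measured genes of neurite and axon growth, 5 were higher and 3 lower at an unadjusted p under 0.05, with a median of 0.05 (7 and 2 without replicate 1, median 0.00). The higher were *Map1b* (0.54), *Gpm6b* (0.33), *Dpysl2* (0.28), *Map2* (0.25) and *Gpm6a* (0.24), and the lower *Stmn3* (-0.26), *Enc1* (-0.22) and *Dpysl5* (-0.21). Of 23 projection neuron genes, 3 were higher and 0 lower (median 0.12), *Foxp1* (0.34), *Nfib* (0.27) and *Id2* (0.27), and without replicate 1 there were 6 and 1 (median 0.04). With arrays centred and replicate 1 left out, 8 projection neuron genes were higher and 0 lower (median 0.10). Under that setting 8 neurite and axon growth genes were higher and 1 lower (median 0.06), and the median of all genes was -0.02. With *Xist* as a covariate and replicate 1 left out, 3 projection neuron genes were higher and 1 lower (median 0.05). Neurite and axon growth genes then gave 5 higher and 0 lower (median 0.01), against a median of -0.07 over all genes. The share of all genes at an unadjusted p under 0.05 is not given for centred or covariate fits. *Tbr1*, a defining factor of deep layer neurons, differed by -0.05. Of 24 general neuron genes 2 were higher, the AMPA receptor subunit *Gria2* (0.39) and the RNA binding protein *Elavl4* (0.25), and the enolase *Eno2* (-0.24) was lower (2 and 0 without replicate 1). Of 31 genes of JIP scaffolds, JNK and axonal transport 2 were higher, *Spag9* (0.23) and the dynactin subunit *Dctn1* (0.31), and 2 lower, the JNK kinase *Map2k7* (-0.23) and the dynein subunit *Dync1i1* (-0.24), against 1 and 3 without replicate 1.

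Cilia lists stayed close to the median of all genes, and the hydrocephalus list lay somewhat above it. Of 52 motile cilia genes 1 was higher, the ciliogenic factor *Rfx3*, and 1 lower, the radial spoke gene *Rsph9* (-0.26), with a median of -0.01 that had the opposite sign (0.0032) when arrays were centred. Without replicate 1 there were 2 higher and 3 lower (median -0.07). *Rfx3* was -0.61, -0.47 and -0.49 in WT B6 and 0.24, -0.14 and -0.21 in *nm1054* B6, a difference of 0.49 (SE 0.13) with no overlap and with replicate 1 on the WT side. *Foxj1*, the main regulator of motile ciliogenesis, differed by 0.16 and *Spef2* and *Cfap54*, whose loss also causes hydrocephalus in mice, by -0.18 and 0.14, all with unadjusted p above 0.05. Of 43 hydrocephalus genes 0 were higher and 1 lower, the intraflagellar transport gene *Ift88* (-0.18), with a median of 0.01, and without replicate 1 there were 1 and 2 (median -0.01). With arrays centred and replicate 1 left out, 5 were higher and 1 lower, with a median of 0.05 against -0.02 over all genes. Centred with all arrays, there were 0 higher and 0 lower. With *Xist* as a covariate and replicate 1 left out, 2 were higher and 1 lower (median -0.01, against -0.07 over all genes). *L1cam*, *Mpdz* and *Ccdc88c* differed by 0.15, -0.02 and 0.01. Of 27 genes of Hedgehog signaling and primary cilia *Ift122* (-0.36) and *Ift88* were lower and none higher, and without replicate 1 there were 5 lower.

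Lists tied to the functions of the deleted genes follow. Of 9 genes of acyl-CoA binding and *Tspo*, the mitochondrial protein that binds ACBP, *Tspo* was lower (-0.25, and -0.37 without replicate 1) and none higher. Without replicate 1, 3 of the 9 were lower, and the median went from -0.03 to -0.17. *Tspo* read -0.34, -0.02 and 0.06 in WT B6 and -0.39, -0.39 and -0.27 in the mutants, with replicate 1 beside the mutants. Of 25 genes of fatty acid synthesis and oxidation, *Etfb* (-0.34) and *Scd2* (-0.23) were lower (2 also without replicate 1), and of 19 sterol synthesis genes *Fdps* (-0.29), *Mvd* (-0.29) and *Hsd17b7* (-0.20) were lower and the regulator *Insig1* (0.25) higher (3 and 0 without replicate 1). Iron handling bears on *Steap3* and the transgene. Of 24 genes 3 were lower, the transferrin receptor *Tfr2* (-0.30), the iron-sulfur scaffold *Iscu* (-0.24) and ferritin light chain *Ftl1* (-0.30), and none higher, against 4 lower and 1 higher without replicate 1. Among 19 red blood cell genes 1 was lower, *Ermap* (-0.24), and without replicate 1 there were 4 lower and 1 higher. The median of the red cell list was -0.27, 0.01 and -0.01 in the WT B6 arrays and -0.10, -0.09 and -0.11 in the mutants.

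Interferon genes had the lowest median with all arrays apart from the deleted and sex-linked genes, at -0.15, and stood at -0.16 without replicate 1. The median of all genes went from -0.03 to -0.09. Without replicate 1 the choroid plexus (-0.19), cytosolic ribosome (-0.19) and acyl-CoA binding (-0.17) lists lay lower. With arrays centred the interferon median was -0.14 with all arrays and -0.10 without replicate 1 (1 higher and 4 lower), each against -0.02 over all genes. Of 21 measured, 5 were lower and 0 higher, *Gbp3* (-0.33), *Ifitm3* (-0.29), *Stat2* (-0.28), *Usp18* (-0.25) and the class I gene *H2-D1* (-0.20), and without replicate 1 there were 6 lower and 0 higher. *Gbp3* read 0.00, 0.03 and -0.27 in WT B6 and -0.32, -0.52 and -0.39 in *nm1054* B6, so the groups did not overlap. On 129 the median of the list was 0.00, and the difference between the backgrounds was not tested for the list. Of 19 microglia genes 0 passed an unadjusted p under 0.05 in either direction, with or without replicate 1.

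Choroid plexus and ribosomal lists depended on WT B6 replicate 1. Of 19 choroid plexus genes 1 was lower with all arrays, the folate receptor *Folr1* (-0.33), and 7 without replicate 1, when the median went from -0.06 to -0.19. The median of the list was -0.22 in replicate 1, 0.13 and 0.17 in the other WT B6 arrays and 0.00, -0.03 and -0.02 in the mutants. *Ttr*, the transthyretin that defines this tissue, was -0.25, 0.16 and 0.17 in WT B6 and 0.03, -0.09 and -0.02 in the mutants, with overlap. Of 21 cytosolic ribosome genes 1 was lower with all arrays, *Rps19* (-0.20), and 8 without replicate 1 (median -0.06 and -0.19). Their median was -0.25 in replicate 1, 0.11 in both other WT B6 arrays and -0.13, -0.13 and -0.05 in the mutants. With arrays centred and replicate 1 left out, 3 choroid plexus and 4 ribosomal genes had an unadjusted p under 0.05.

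Among 21 endothelial and pericyte genes *Flt1* (0.32) and *Ly6c1* (0.48) were higher and *Vtn* (-0.31) and *Kdr* (-0.28) lower, against 2 and 3 without replicate 1. Among 21 genes of interneurons and GABA receptors *Gabbr2* (0.41) was higher and *Sst* (-0.28) and *Gabra5* (-0.34) lower, against 2 and 4 without replicate 1. Radial glia and astrocytes had *Sox2* (0.24) higher and *Hes5* (-0.27) lower among 26, immediate early genes *Nr4a3* (0.23) higher and *Npas4* (-0.22) lower among 22, and Atf4 and unfolded protein stress *Ddit3* (-0.28) and *Xbp1* (-0.26) lower among 23. Without replicate 1 these 3 lists had 0 higher and 1 lower, 1 and 4, and 0 and 2. The lists of 30 proliferating progenitor, 16 oligodendrocyte lineage, 16 meninges and 19 hypoxia response genes had 0 at an unadjusted p under 0.05 with all arrays. Without replicate 1 there were 4 lower progenitor genes, 1 higher oligodendrocyte lineage gene, 4 lower meninges genes and 1 lower hypoxia gene. Of 25 genes of other tissues of the head 3 were lower, the keratin *Krt14* (-0.28) and the muscle genes *Acta1* (-0.35) and *Tnnt3* (-0.39), and 8 without replicate 1. The median of that list was -0.23, 0.00 and 0.11 in the WT B6 arrays and -0.17, -0.16 and -0.11 in the mutants, and the part of dissection in other results was not tested. The sex-linked genes, of which 4 were measured, differed with the *Xist* pattern above, *Xist* by 1.52 and *Eif2s3y* by -0.94, with overlapping groups. Without replicate 1, 2 of the 4 were lower at an unadjusted p under 0.05.

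**Figure D5:**
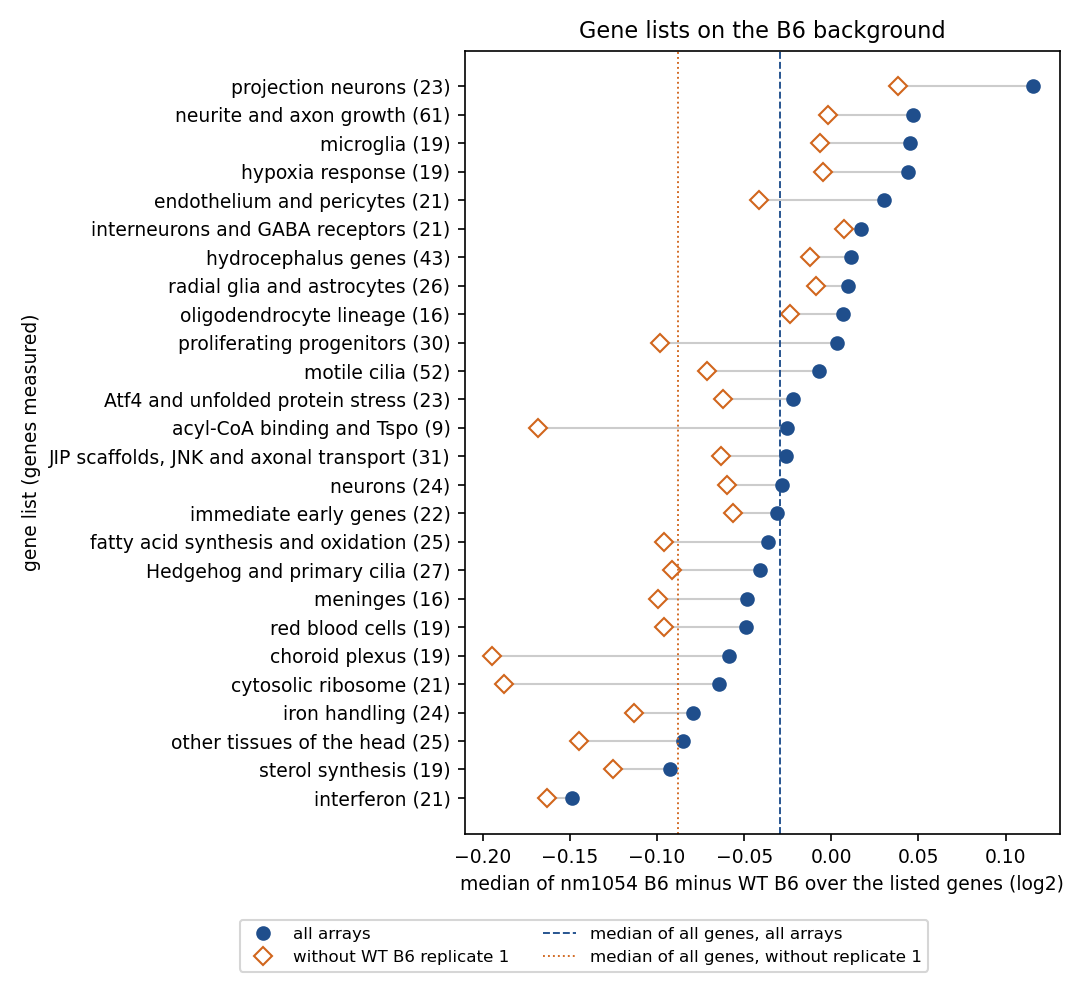
Median difference between *nm1054* B6 and WT B6 over the genes of each list (x axis, log2), with all arrays (filled circles) and without WT B6 replicate 1 (open diamonds), and the median of all genes for each (vertical lines). Projection neuron genes have the highest median with all arrays at 0.12, interferon genes lie at -0.15 with and -0.16 without replicate 1, and choroid plexus genes go from -0.06 to -0.19.

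Genes beside the deletion gave no call on B6 with all arrays. Within 10 Mb on either side 40 genes with 81 probes were measured, of which 0 were called with all arrays (6 at an unadjusted p under 0.05) and 1 without replicate 1, *R3hdm1* (0.68, adjusted p = 0.041), named after its values were seen. It read 0.42, -0.74 and -0.81 in WT B6 and -0.13, -0.14 and -0.03 in the mutants, with replicate 1 above all mutant arrays. Differences with all arrays ran from -0.34 to 0.60 in this window, and the counts called with all arrays were also 0 within 5 and 20 Mb.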

How the data were processed

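Labeled RNA of 12 whole-brain samples at postnatal day 1 was hybridized in a single colour, and 12 arrays in 4 groups of 3 limit the precision. Intensities came from GenomeStudio and were normalized in GeneSpring GX by the authors, and the deposited log2 values have a median of 0 over the arrays at every probe. Scale and direction were settled against fold changes tabulated by the study. Versions, the kind of normalization between arrays and the beadchip of each array are not given in the sources used here. Signal levels and detection calls were not used here, so no filter on dim probes was applied.

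Symbols came from the platform table updated through RefSeq names of GRCm38.p6, by gene identifier (28620 probes), transcript identifier (2637) or synonym (2343), or were kept (2184). The other 9497 probes are unnamed. R 4.3.3 with limma 3.58.1 fitted a mean for each group over all 12 arrays (8 residual and 10.8 prior degrees of freedom), or 11 without WT B6 replicate 1 (7 and 13.9). Tests are two-sided with Benjamini-Hochberg adjustment over all probes or all gene means. The fit was tested on simulated data. Alternatives were the methods' t-test, B6 arrays alone, a replicate block, centring, quantile normalization, array weights, the more variable probes, robust variance, *Xist* as a covariate, other fold thresholds and each array left out. Centring combined with leaving out replicate 1, named probes under both choices and the lists under other scalings were added after seeing the data. Promoters and figures used Python 3.11.15, matplotlib 3.10.9 and pandas 2.3.3.

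Members and lists were chosen with earlier results of these data known. Named genes are all probes called with all arrays, the 20 higher and 10 lower genes of smallest adjusted p without replicate 1 (clone and predicted names skipped), genes called at 2 or more probes, the deleted and sex-linked genes, up to 4 genes per list, and probes with an interaction. P-values measure the spread between these samples, and whether each is 1 animal is not settled by the sources used here. Replicate numbers did not pair the samples: deviations of same-numbered arrays correlated at 0.0212, -0.105 and 0.17.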

Additional observations from a re-analysis of the deposited data

Results flagged for a closer look

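*Mcm6*, a subunit of the replicative helicase, was the 1 probe whose difference between genotypes differed between backgrounds with all arrays (interaction -3.07 at ILMN_1217331, SE 0.27, adjusted p = 4.2e-05 by limma). On B6 it read -0.43, 0.40 and 0.23 in WT and 0.20, -0.01 and 0.12 in *nm1054* arrays, a difference of 0.04 with all arrays and -0.21 without WT B6 replicate 1. On 129 the WT arrays ran from -3.17 to -3.03 and the *nm1054* arrays from -0.45 to 0.40, a difference of 3.11. The 3 WT 129 arrays alone were low, and the B6 arrays stood at the level of the *nm1054* 129 arrays. *Mcm6* lies on chromosome 1, as the deletion does, and the part of its position in this difference was not tested.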

How the results depend on the processing

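For the 8 probes called with all arrays, the methods' t-test called 1, the B6 arrays alone 5, array weights (0.23 for WT B6 replicate 1) 133, of which 75 were among the 93, a fold over 2 gave 5, and leaving out an array 6 to 93. For the 93 without WT B6 replicate 1, the t-test called 0 (177 at an unadjusted p and 1.5-fold), centring 212, the more variable probes 184, the *Xist* covariate 57 (49 of them shared), a fold over 2 gave 11, and leaving out a further array 20 to 178. A replicate block gave 7 and 73 probes. Without WT B6 replicate 2 or 3 as well, 20 and 24 probes were called with a lone WT B6 array, assumed to vary like the other groups, and without *nm1054* B6 replicates 1, 2 and 3 there were 24, 49 and 178. Gene means went from 2 to 21 with array weights and 2 to 10 over arrays left out. The 10 without replicate 1 became 0 by the t-test, 2 with B6 arrays alone, a replicate block, the *Xist* covariate or a fold over 2, 3 after quantile normalization, 16 in the more variable probes, and 2 to 16 over further arrays left out. The 1 interaction became 3 after centring, 5 after quantile normalization, 39 with array weights, 2 in the more variable probes, and 1 to 7 over arrays left out (5 without *nm1054* 129 replicate 2, 7 without WT B6 replicate 1). The causes were not tested. The 8 probes called with all arrays and the named probes called without replicate 1 that were recomputed kept their sign. *Mcm6* (ILMN_1217331), not called on B6, went from 0.04 to -0.21 without replicate 1.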
